A study of Homo sapiens with 9 samples.

Results

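The 7 genes described here, H1F0, H2AFZ, H2AFV, H2AFY, H2AFY2, H3F3A and H3F3B, encode replacement histones, histone variants made throughout the cell cycle from polyadenylated mRNAs of genes that lie outside the HIST clusters. They were chosen by symbol from the 19969 genes of a count table, and all 7 were present. The table holds 9 libraries of ribosomal-RNA-depleted RNA from HEK293T, a human embryonic kidney cell line, in a series on red and far-red light as a switch for changing N6-methyladenosine (m6A, the commonest internal methylation of mRNA). In 6 libraries the cells carried an FHY1-M3 construct, with 2 libraries each for an ACTB_sgRNA, a con_sgRNA and a non-target_sgRNA, guide RNAs named here ACTB, con and non-target. The other 3 are called input, and no construct, guide or treatment is named for them. The labels name libraries of input, supernatant and immunoprecipitated RNA without saying which of these the FHY1-M3 libraries are. They also do not give the light that each culture received or whether replicates came from separate cultures. The spread behind each p-value is that of these libraries and may be technical. The con columns carry the heading con_ACTB_sgRNA, against con_sgRNA in the titles, and whether they also had an ACTB guide is not known.

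Most histone mRNA of a dividing cell comes from the clustered, replication-dependent genes, whose transcripts are made in S phase and lack a poly(A) tail, ending instead in a stem-loop. Replacement histones do not depend on DNA synthesis and are placed into chromatin by their own chaperones. H1F0 encodes H1.0, a linker histone that accumulates in cells that slow or stop dividing. H2AFZ and H2AFV encode the H2A.Z forms found at promoters, H2AFY and H2AFY2 encode the macroH2A forms, which carry a large macro domain and are found on silent chromatin, and H3F3A and H3F3B encode the same H3.3 protein, which marks active and remodelled chromatin.

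Total counts ran from 2900021 to 3802681 in the FHY1-M3 libraries and from 350413 to 643954 in the inputs, a ratio of 9.29 between the medians. Mitochondrial mRNAs took 0.563% to 0.639% of counts in the FHY1-M3 libraries and 7.52% to 7.80% in the inputs. Over the marker genes of the HEK293 line that were looked up (VIM, KRT8, KRT18, NEFL, NEFM, GAL and LIN28B) the summed level was 1187 to 1325 CPM (counts scaled to a common library size) in the FHY1-M3 libraries and 1182 to 1461 CPM in the inputs, while PTPRC, CD3E, CDH5, NPHS1, UMOD and TTR, markers of other cell types, were at 0 in all 9. Of the other lists, tubule markers summed to 44.2 to 70.4 and 62.7 to 121 CPM and podocyte markers to 40.2 to 70.7 and 75.2 to 110 CPM, and their part in the results was not tested. No FHY1-M3 library overlapped the inputs in depth or mitochondrial share, and both cannot be told apart from the group itself.

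The promoter windows of both H3.3 genes and both H2A.Z genes are shown first, because the H3.3 pair differed most in its balance between FHY1-M3 and input libraries and the H2A.Z pair least. Each window is the 250 bases before an annotated transcription start, 5′ to 3′ on the gene's strand, from RefSeq on GRCh38.p14. Capitals mark matches, on either strand, to the CCAAT box (letters CCAAT), the TATA box (letters TATAAA) and the GC box (letters GGGCGG). H3F3A has 4 annotated starts, and the window of the most upstream one is shown.
H3F3A, chr1:226061581-226061830, plus strand: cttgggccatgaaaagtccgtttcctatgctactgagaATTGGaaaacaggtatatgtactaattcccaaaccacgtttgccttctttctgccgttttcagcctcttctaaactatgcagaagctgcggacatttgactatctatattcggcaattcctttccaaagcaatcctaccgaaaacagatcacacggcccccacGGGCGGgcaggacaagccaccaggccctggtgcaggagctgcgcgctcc
H3F3B, chr17:75779780-75780029, minus strand: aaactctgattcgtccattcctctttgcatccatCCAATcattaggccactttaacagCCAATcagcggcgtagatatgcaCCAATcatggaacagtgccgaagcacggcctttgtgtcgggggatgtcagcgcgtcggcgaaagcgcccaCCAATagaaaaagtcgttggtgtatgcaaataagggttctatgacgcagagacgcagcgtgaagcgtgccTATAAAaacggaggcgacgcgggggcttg
H2AFZ, chr4:99950276-99950525, minus strand: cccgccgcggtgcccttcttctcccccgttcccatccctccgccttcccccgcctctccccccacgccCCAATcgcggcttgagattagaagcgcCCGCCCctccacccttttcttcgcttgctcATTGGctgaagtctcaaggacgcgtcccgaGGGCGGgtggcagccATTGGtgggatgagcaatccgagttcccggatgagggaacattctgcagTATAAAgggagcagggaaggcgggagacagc
H2AFV, chr7:44848088-44848337, minus strand: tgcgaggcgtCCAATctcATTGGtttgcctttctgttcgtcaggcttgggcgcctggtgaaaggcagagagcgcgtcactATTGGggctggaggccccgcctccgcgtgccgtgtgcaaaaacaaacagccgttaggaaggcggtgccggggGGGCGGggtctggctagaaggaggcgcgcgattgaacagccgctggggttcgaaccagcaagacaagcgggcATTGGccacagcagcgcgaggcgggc
The H3F3B window held 4 CCAAT matches, 1 TATAAA match and 0 GC box matches. The H3F3A window shown held 1 CCAAT match, 0 TATAAA matches and 1 GC box match, and the window of its most downstream start held 1, 0 and 6. H2AFZ had 3 CCAAT matches and 1 TATAAA match, and H2AFV had 4 and 0. Of 35116 annotated windows of the same length, 32.0% held CCAAT, 10.7% held TATAAA and 42.6% held GGGCGG on either strand. GAANNTTC, the core letters of a heat shock element, was found in the H2AFZ window and in 5.78% of all windows, and TGACGT, the core of a cAMP response element, in none of the 10 windows of the 6 members that had one and in 7.1% of all. These matches describe letters, and no binding was measured.

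H1F0 lies on chromosome 22 from 37805229 to 37807432, H2AFZ on chromosome 4 from 99948088 to 99950275 and H2AFV on chromosome 7 from 44826889 to 44848126. H2AFY spans 135334381 to 135399887 on chromosome 5 and shares 10300 bases with the long noncoding gene PITX1-AS1, and H2AFY2 spans 70052846 to 70112282 on chromosome 10 and shares 12 bases with AIFM2. H3F3A, on chromosome 1 from 226061831 to 226072019, shares 665 bases with the noncoding gene H3-3A-DT, and H3F3B lies on chromosome 17 from 75776434 to 75779779. All are spans in GRCh38.p14, and how the counting treated shared bases is not given in the sources used here. RefSeq lists 9 pseudogenes whose older symbols derive from H3F3A or H3F3B and 7 from H2AFZ or H2AFV, so reads of these 4 members may have been shared with near-identical copies and their single values carry that uncertainty.

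H1F0 and H3F3B were higher in the FHY1-M3 libraries than in the inputs, by about 1.6 times each, and the other 5 members did not pass the test. H1F0 stood at 606 and 603 CPM with the ACTB guide, 626 and 632 with con and 628 and 564 with non-target, against 309, 426 and 369 in the inputs. Every FHY1-M3 library was above every input, and the highest input fell short of the lowest FHY1-M3 library. The means were 609.7 ± 25.4 CPM (SD, n = 6) and 368 ± 58.3 CPM (n = 3), a log2 difference of 0.72 (SE 0.11, 95% interval 0.49 to 0.95, adjusted p = 1.15e-05 in edgeR's quasi-likelihood test, adjusted over all genes tested with a threshold of 0.05). In bulk RNA, a difference in the number of cells with a transcript and in its amount per cell cannot be told apart. Neither can be told apart from a possible difference in the kind of library. H3F3B was measured at 369.7 and 400.3 CPM with ACTB, 383 and 404 with con, 438 and 438 with non-target, and 289, 260.1 and 209 in the inputs. Its groups did not overlap either, and the non-target libraries were the highest. The means were 406 ± 28.2 and 253 ± 40.5 CPM, with a log2 difference of 0.68 (SE 0.13, interval 0.42 to 0.94, adjusted p = 0.000198). Of the 13411 genes tested, 20% passed, 11.4% higher and 8.6% lower, and among the 5282 genes of at least 50 CPM, a level reached by all 7 members, 34% passed, 21.5% as higher and 12.4% as lower. All 6 FHY1-M3 libraries were above all inputs in 14.9% of the genes tested and below them in 8.51%. In the members 2 of 7 were higher and 0 lower, which is a share close to that of genes at such levels. The median log2 difference was 0.08 over the members and 0.12 over the genes of at least 50 CPM. With mitochondrial and HIST genes removed before scaling, the log2 differences were 0.71 for H1F0 and 0.67 for H3F3B, and with the FHY1-M3 libraries thinned to the mean input total of 462026 counts they were 0.60 and 0.49, all past the threshold. The thinning drew counts singly, without keeping the mates of a read pair together. It thus matched total counts but not the number of read pairs.

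**Figure D1:**
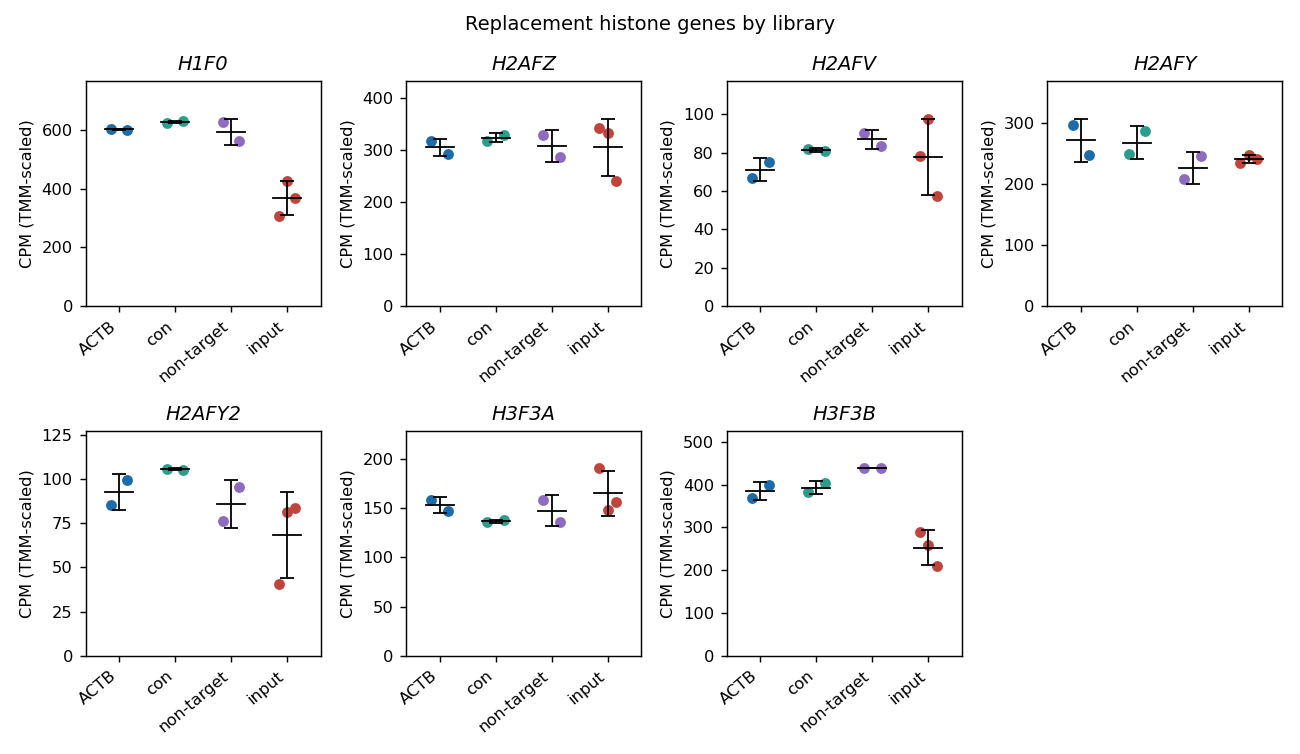
CPM of each member in the 9 libraries, by guide and input, with points for libraries and bars for mean ± SD (n = 2 for each guide, n = 3 for input). H1F0 and H3F3B show all 6 FHY1-M3 libraries above the 3 inputs, and in the other 5 members the points overlap.

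H3F3A, which encodes the same protein as H3F3B, did not pass the test. Its levels were 159 and 147 CPM with ACTB, 136 and 138 with con, 159 and 136 with non-target, and 191, 148 and 157 in the inputs. The inputs reached higher but overlapped the FHY1-M3 libraries, and the log2 difference was -0.17 (SE 0.18, interval -0.53 to 0.19, adjusted p = 0.545). It was -0.06 without input replicate 1 (adjusted p = 0.863) and -0.26 without input replicate 2 (adjusted p = 0.396). H3F3A held 23.7% to 30.1% of the counts of the pair in the FHY1-M3 libraries (median 26.4%), and 39.8%, 36.3% and 42.9% in the inputs. These shares did not overlap. The mean log2 ratio of H3F3A to H3F3B was -1.48 ± 0.15 (SD, n = 6) against -0.61 ± 0.20 (n = 3), a difference of -0.87, with p = 0.0238 in a two-sided exact permutation test of 84 splits, the smallest p that this design allows, and 0.0714 after Benjamini-Hochberg adjustment over the 3 pairs compared. The balance did not pass after adjustment, and its groups did not overlap. With the p-values of the other pairs as they were, even the smallest p could not pass. The adjusted test thus could not decide whether the balance differed. This ratio is taken within a library and does not depend on the scaling.

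The H2A.Z genes did not pass the test, and neither did their balance. H2AFZ was at 317 and 293 CPM with ACTB, 318 and 329 with con, 329 and 286 with non-target, and 341, 332 and 240.5 in the inputs. Input replicate 3 was the lowest of the 9 and input replicate 1 the highest. The log2 difference was 0.03 (SE 0.13, interval -0.24 to 0.30, adjusted p = 0.908), which leaves room for folds of 0.846 to 1.23. H2AFV stood at 66.9 and 75.2 CPM with ACTB, 81.9 and 80.6 with con, 90.3 and 83.4 with non-target, and 78.1, 97.5 and 57.5 in the inputs, which rest on 22 to 60 counts. The inputs spanned all 6 FHY1-M3 values, with a log2 difference of 0.01 (SE 0.25, interval -0.50 to 0.52). The sign of both small differences turned under other scalings, so neither gene has a direction. H2AFZ took 77.4% to 82.6% of the pair's counts in the FHY1-M3 libraries and 77.3% to 81.4% in the inputs, a difference in log2 ratio of -0.01 (exact permutation p = 0.929, adjusted 0.929).

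Of the macroH2A genes, H2AFY was at 297 and 247 CPM with ACTB, 249 and 287 with con, 208 and 245 with non-target, and 234, 247 and 240.5 in the inputs. The inputs lay in the middle of the FHY1-M3 range, and the log2 difference was 0.08 (SE 0.14, interval -0.21 to 0.37, adjusted p = 0.756), with no stable sign under other scalings. H2AFY2 was at 85.4 and 99.8 CPM with ACTB, 106 and 105 with con, 76.3 and 95.7 with non-target, and 40.5, 81.3 and 83.6 in the inputs. Input replicate 1, with 14 counts of this gene, stood apart from the other inputs. The log2 difference was 0.43 (SE 0.26, interval -0.09 to 0.96, adjusted p = 0.249), and 0.19 without that library (adjusted p = 0.642). The share of H2AFY in the pair was 70.1% to 77.7% in the FHY1-M3 libraries and 85.3%, 75.2% and 74.2% in the inputs, which overlapped. The difference in log2 ratio of -0.46 did not pass (exact permutation p = 0.143, adjusted 0.214) and was -0.13 without input replicate 1.

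**Figure D2:**
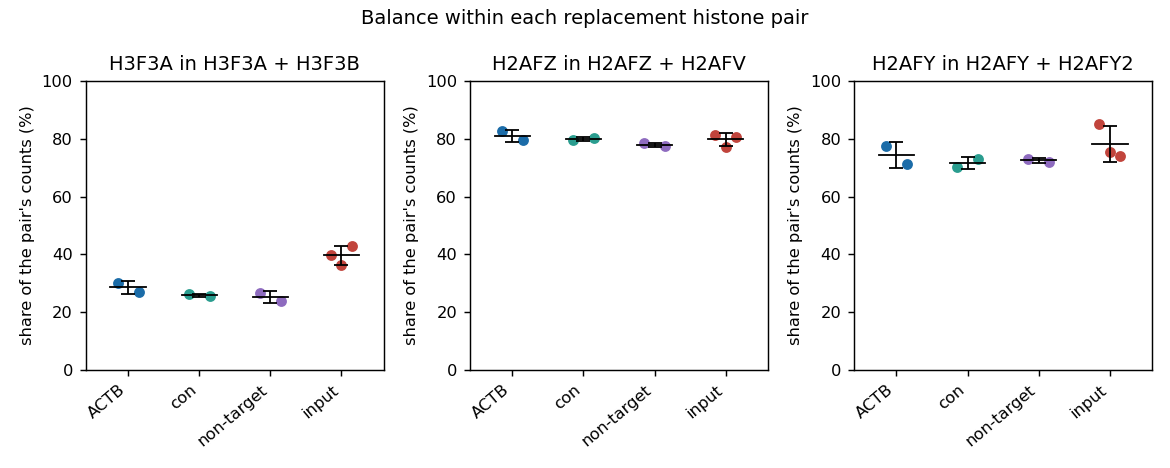
Share of the counts of each pair held by its first-named gene (%), by library, with mean ± SD for each group; counts are not corrected for transcript length. H3F3A falls below 31% in all 6 FHY1-M3 libraries and is above 36% in the 3 inputs, while the other pairs overlap.

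Each guide was also set against the 3 inputs, which all of these comparisons share. H1F0 was higher by a log2 of 0.70 (SE 0.14) with ACTB, 0.76 (SE 0.14) with con and 0.68 (SE 0.14) with non-target, with adjusted p-values of 0.000428, 0.000138 and 0.000575. H3F3B was higher by 0.61 (SE 0.16), 0.64 (SE 0.16) and 0.79 (SE 0.16), with adjusted p-values of 0.00823, 0.0051 and 0.000481. With non-target the H3F3B call was kept in all 18 alternatives. The H3F3B calls of ACTB and con were lost after thinning, where the log2 difference was 0.37 for ACTB (adjusted p = 0.195) and 0.48 for con (0.0842). They were also lost without ACTB replicate 2, at 0.55 (adjusted p = 0.124), and without con replicate 2, at 0.60 (0.0984), where the differences were about as large. No other member passed with any guide, and the share of all genes that passed was 11% with ACTB (7.05% higher), 11.4% with con (7.22% higher) and 12.7% with non-target (8.1% higher). The nearest to the threshold was H2AFY2 with con (log2 0.60, SE 0.31, adjusted p = 0.223). The shares over all genes include weakly counted genes. Shares among genes of at least 50 CPM were not counted for single guides. The number of members called with a guide thus cannot be set against genes at such levels.

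Between guides, 0 of the 7 members passed in any comparison, by edgeR or by DESeq2, and 0 had an unadjusted p under 0.05 in edgeR. Of all 12808 genes 0.25% passed between ACTB and non-target, 0.0312% between ACTB and con and 0.172% between con and non-target, shares at which 0 of 7 is no result about the members. H1F0 ran in the order con (629 ± 4.24 CPM), ACTB (604 ± 1.69) and non-target (596 ± 45.1). Both con libraries lay above both ACTB libraries, by more than the SD of either pair, and the log2 difference of ACTB from con was -0.05 (SE 0.09, interval -0.23 to 0.13, adjusted p = 1), while ACTB and non-target overlapped. Its log2 difference between ACTB and non-target was 0.02 (SE 0.09), with an interval of -0.16 to 0.20 that reaches from 0.898 to 1.15 times. With 2 libraries a guide, full separation of guides can readily arise without a real difference. The share of all genes separated in this way was not counted, so such separations are no result about the members. The widest gaps were in H2AFV, H2AFY, H2AFY2 and H3F3B. H2AFV was at 71.0 ± 5.89 CPM with ACTB, 81.2 ± 0.953 with con and 86.8 ± 4.88 with non-target, and ACTB differed from non-target by -0.29 (SE 0.25, interval -0.79 to 0.21, adjusted p = 0.833). H2AFY ran from 272 ± 35.2 CPM with ACTB and 268 ± 27.0 with con to 226 ± 26.2 with non-target, a log2 difference of 0.27 between ACTB and non-target (SE 0.14, interval -0.02 to 0.55, adjusted p = 0.655). H2AFY2 was at 106 ± 0.611 CPM with con, 92.6 ± 10.2 with ACTB and 86.0 ± 13.7 with non-target, and con differed from non-target by 0.30 (SE 0.23, interval -0.16 to 0.76, adjusted p = 0.966).

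For H3F3B the order was non-target (438 ± 0.152 CPM), con (393 ± 14.5) and ACTB (385 ± 21.6). Both non-target libraries were above the 4 others, yet the difference of ACTB from non-target was -0.18 on the log2 scale (SE 0.11, interval -0.40 to 0.03, adjusted p = 0.70) and that of con was -0.16 (SE 0.11, interval -0.37 to 0.06, adjusted p = 0.939). H3F3A was at 153 ± 8.05 CPM with ACTB, 147 ± 15.7 with non-target and 137 ± 1.62 with con, and H2AFZ at 323 ± 8.0 with con, 307 ± 30.3 with non-target and 305 ± 17.0 with ACTB. In both genes the non-target libraries overlapped those of con and of ACTB, whereas the ACTB and con libraries did not overlap. How often guides separated in this way over all genes was not counted. The log2 differences of ACTB from con were 0.17 (SE 0.18) and -0.08 (SE 0.12) and did not pass. The H3F3A share of the H3.3 pair was 28.5% ± 2.21 with ACTB, 25.8% ± 0.481 with con and 25.1% ± 2.01 with non-target (n = 2 each), where no exact test between guides can reach the threshold.

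**Figure D3:**
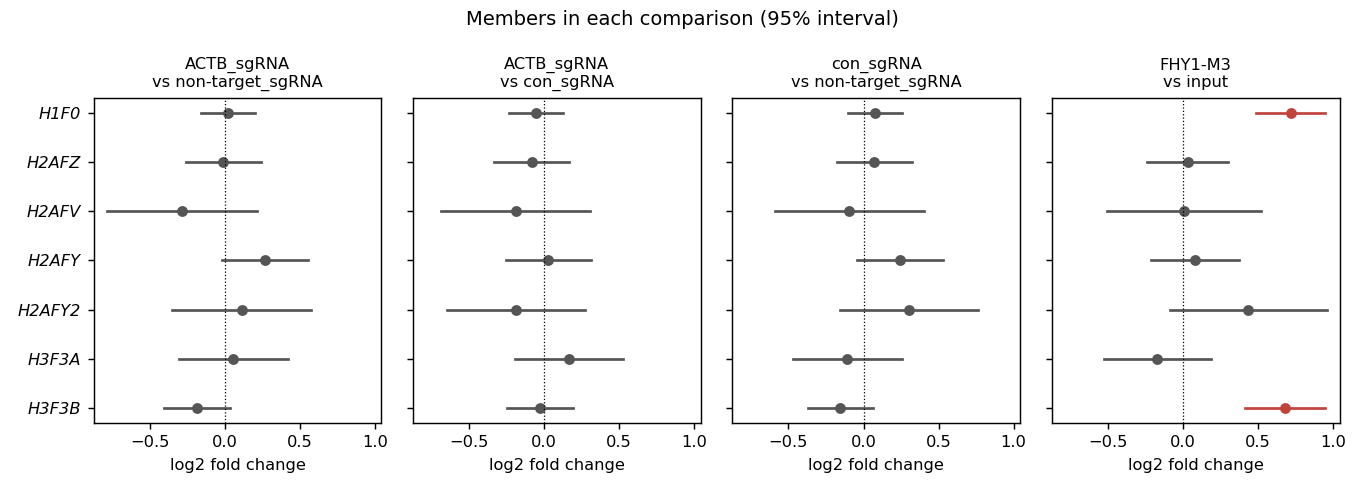
Log2 fold change of each member with its 95% interval in the 3 comparisons of guides and in FHY1-M3 against input; red marks an adjusted p under 0.05. All intervals between guides include 0, and against input H1F0 (0.72) and H3F3B (0.68) are the members whose intervals do not.

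Most of the clustered histone genes tested were lower in the FHY1-M3 libraries than in the inputs, while the members had no common direction. Together the 7 members took 0.187% to 0.201% of counts in the FHY1-M3 libraries and 0.132% to 0.152% in the inputs, while the 71 clustered genes took 0.132% to 0.149% and 0.797% to 0.938%. There were thus 1.25 to 1.5 counts of members for each count of a clustered gene in the FHY1-M3 libraries, and 0.143 to 0.184 in the inputs. Of the 43 clustered genes tested, 37 were lower and 0 higher, with a median log2 difference of -2.75 against 0.04 over all genes tested. HIST1H2AB (-5.51, SE 0.73) and HIST2H2AB (-4.44, SE 0.63) encode H2A, HIST1H4D (-5.46, SE 0.28) encodes H4 and HIST1H3F (-4.63, SE 0.40) encodes H3. The clustered genes are close copies of each other, so their single values are uncertain.

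**Figure D4:**
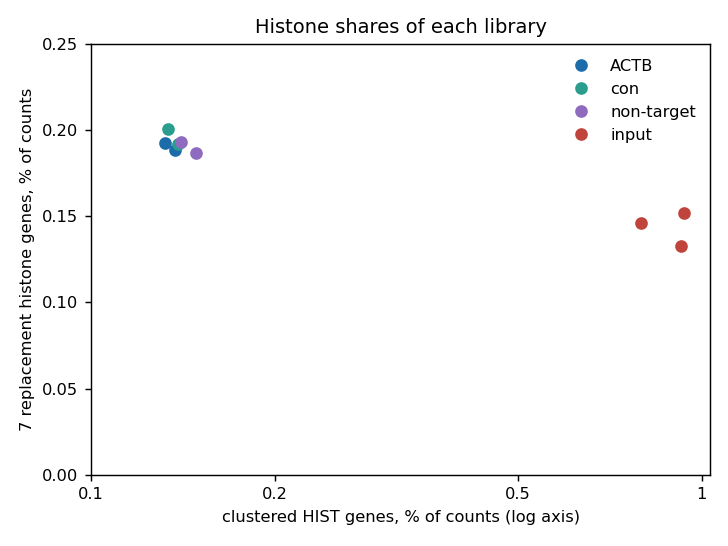
Share of counts from the 7 replacement histone genes against the share from the 71 clustered HIST genes (log axis), 1 point per library. The 6 FHY1-M3 libraries lie between 0.132% and 0.149% for clustered genes and the 3 inputs between 0.797% and 0.938%, while the member shares range from 0.132% to 0.201%.

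Among linker histones H1F0 rose, whereas HIST1H1C (-2.82, SE 0.12), HIST1H1D (-2.67, SE 0.27) and HIST1H1E (-2.75, SE 0.11), clustered H1 genes named after their values were seen, fell. H1FX, a linker histone gene outside the clusters, also fell, from 555 ± 114 CPM in the inputs to 327 ± 31.6 CPM (log2 -0.76, SE 0.12, adjusted p = 1.29e-05). H1FX belongs to a list of 12 other histone genes outside the clusters, of which 4 could be tested, 2 were lower and 1 was higher. H2AFX, whose H2A.X protein is phosphorylated at DNA breaks and whose mRNA can end in a stem-loop or a poly(A) tail, fell by 0.96 on the log2 scale (SE 0.15, adjusted p = 7.84e-06). H2AFJ rose by 2.48 (SE 0.87, adjusted p = 0.0395) but held 0, 0 and 4 counts in the inputs against 36 to 80 in the deeper FHY1-M3 libraries. Its groups overlapped in CPM, and 9 of 19 alternatives ended its call, among them leaving out input replicate 2 (log2 1.68, adjusted p = 0.193). Histone genes outside the clusters were thus called in both directions.

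The chaperones that place replacement histones were described from lists drawn up by known function, with earlier results of these data known. Of 7 genes for H3.3 deposition, 3 rose and 2 fell, with a median log2 difference of 0.63. DAXX, the chaperone that works with ATRX, rose by 0.90 (SE 0.24, adjusted p = 0.00692) and UBN1, a subunit of the HIRA complex, by 0.85 (SE 0.24, adjusted p = 0.0111), while its relative UBN2 fell by 0.74 (SE 0.19, adjusted p = 0.00498) and ASF1A, which hands H3-H4 to HIRA, fell by 1.32 (SE 0.47, adjusted p = 0.0432). UBN1 lost its call without input replicate 1 (log2 0.50, adjusted p = 0.087) and ASF1A in 7 of 19 alternatives (log2 -0.59, adjusted p = 0.484 without input replicate 1). Of 20 genes for H2A.Z deposition and removal, 4 rose and 0 fell, with a median of 0.32. Without input replicate 1 the counts were 4 and 2 with a median of 0.55, and without input replicate 2 they were 3 and 0 with a median of 0.14. EPC1, a scaffold of the TIP60 complex, rose by 1.52 (SE 0.25), the ATPase RUVBL2 by 1.34 (SE 0.17) and INO80, the ATPase of a remodeller that acts on H2A.Z, by 1.17 (SE 0.27). RUVBL1 was past the threshold (0.55, SE 0.20, adjusted p = 0.0458) but lost its call in 12 of 19 alternatives, with a log2 of 0.23 without input replicate 2 (adjusted p = 0.44). H2AFZ and H2AFV themselves did not pass.

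Of 15 general and replication-coupled chaperones, 4 rose and 5 fell, with a median of -0.01. CHAF1A, the large subunit of the chaperone that loads H3-H4 at replication forks, rose by 1.09 (SE 0.17), and the chromatin remodeller HELLS fell by 1.15 (SE 0.16), RBBP4, which binds H4 in several complexes, by 0.67 (SE 0.12), and the H2A-H2B chaperone NAP1L1 by 0.65 (SE 0.10). The median over all genes tested was 0.04, and the counts of these lists stand beside the 20% of all genes that passed. Among genes of at least 50 CPM, a level that most but not all listed chaperones reached, 34% passed, 21.5% as higher and 12.4% as lower. For the H2A.Z list, 4 of 20 higher is close to that share of higher genes.

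**Figure D5:**
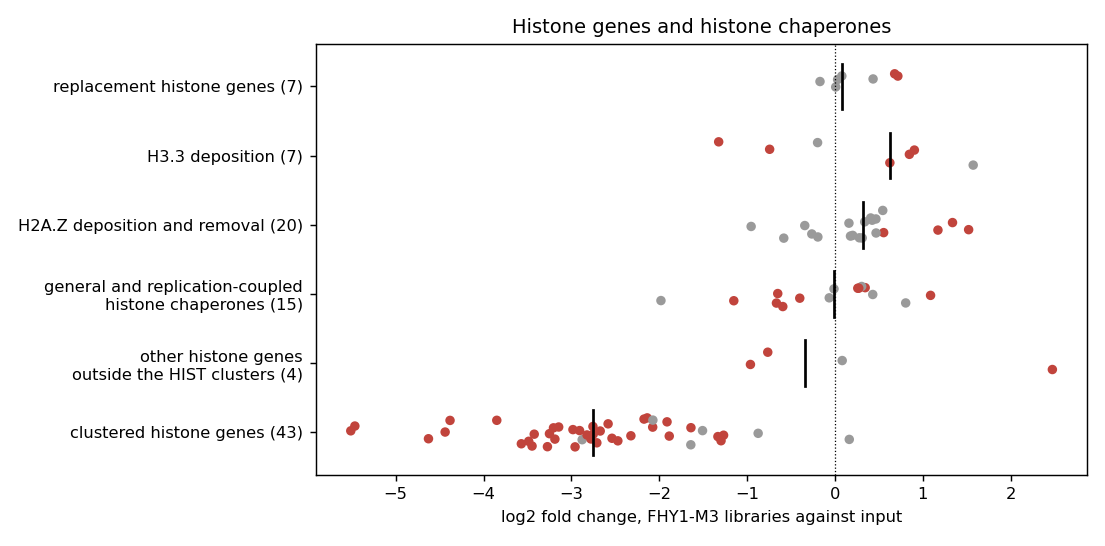
Log2 fold change of FHY1-M3 against input for the tested genes of each list (number in brackets), with red for an adjusted p under 0.05 and a black line at the list's median. The clustered histone genes centre on -2.75, and the replacement histone genes lie between -0.17 and 0.72.

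The genes whose pattern over the 9 libraries was most like each member were found by the root-mean-square difference of log2(CPM + 1), centred per gene, among 8827 genes with a mean of at least 20 CPM. For H1F0 they were RBM39 (0.047) and RRP1B (0.0597), and for H3F3B PIM3 (0.10) and KIF7 (0.101). ANAPC5 (0.0647) and RPL15 (0.0773) were nearest to H3F3A, EIF4G3 (0.0798) and HCFC1 (0.0869) to H2AFZ, and SNRPD1 (0.0676) to H2AFV. For H2AFY they were GOT2 (0.0726) and ATG4B (0.0986), and EDF1 (0.102) was among those of H2AFY2. Among the members themselves the nearest were H2AFZ and H2AFV (0.148), then H3F3A and H2AFZ (0.187), while H3F3A and H3F3B differed by 0.433. The distance from a flat line was 0.148 for H2AFZ, 0.211 for H2AFV and 0.145 for H3F3A. H2AFZ was thus about as far from H2AFV as from a flat line, and farther from H3F3A. The nearness of H2AFZ, H2AFV and H3F3A therefore does not show a shared pattern. H1F0 and H3F3B, both called higher against input, differed by 0.209, with distances from a flat line of 0.367 and 0.352. They were thus nearer to each other than to a flat line.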

How the data were processed

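The members and lists were chosen with earlier results of these data known. The authors deposited whole-number read counts per gene symbol, and nothing in the values points to a normalization. Per the submitters' processing notes, cutadapt 4.3, STAR 2.7.10b, deepTools and hg38 were used, with no roles given. How reads were assigned to genes, by which annotation and strand, was not given in the sources used here. Of counts from 1 to 20, 88.5% to 95.0% per library were even, so a fragment seems to add 2 counts, 1 per mate. Replicates differed by more than sampling noise (chi-square per degree of freedom 1.80 to 5.12 on halved counts).

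Groups were compared with edgeR 4.0.16 quasi-likelihood F tests (R 4.3.3), two-sided, after filterByExpr and TMM scaling: guides in a fit of 6 libraries (12808 genes), input in a fit of all 9 (13411 genes, guides weighted equally). Adjusted p-values are Benjamini-Hochberg values over all genes tested, with a threshold of 0.05. Levels are TMM-scaled CPM of the 9-library fit. SE was derived from the log2 fold change and the F value. Pair ratios used exact permutation tests. DESeq2 1.42.0, scalings, filters, a replicate block, thinning and left-out libraries were alternatives. The script was tested on simulated data. All 7 members matched RefSeq names, and 6 had promoter windows. Transcript lengths were not used, so levels are not compared between genes. Named genes are all members, up to 4 genes per list past the threshold with at least 5 CPM and the largest change, and the 2 most like each member, of which some are not reported here.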

Additional observations from a re-analysis of the deposited data

How the results depend on the processing

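The direction of H1F0 and H3F3B against input and their place past the threshold were kept in all 19 alternatives. Log2 differences ran from 0.60 to 0.84 for H1F0 (adjusted p 1.29e-08 to 0.000452) and from 0.49 to 0.77 for H3F3B (adjusted p 9.58e-06 to 0.0127). With thinned sgRNA libraries the number of members called was 1 for ACTB and 1 for con against input, and leaving out libraries gave 1 to 2 for each. Fewer counts or samples entered those fits. The causes of these and of the other changes were not tested.

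Differences near 0 changed sign. In this order, median-ratio factors, a 10 CPM filter and DESeq2 gave -0.0489, -0.0511 and -0.0498 for H2AFZ against input, -0.0688, -0.0717 and -0.0727 for H2AFV, and -0.000576, -0.00287 and -0.000977 for H2AFY. They gave -0.0364, -0.0379 and -0.0404 for H2AFV with con and -0.0674, -0.0702 and -0.0681 for H2AFZ with non-target. Thinning gave -0.11 for H2AFZ, -0.15 for H2AFV and -0.0707 for H2AFY against input, -0.0406 for H2AFZ and -0.30 for H2AFV with con, and -0.0904 for H2AFZ with non-target. Counts halved to read pairs gave -0.0408 for H2AFV, -0.0061 for H2AFV with con and -0.0108 for H2AFZ with non-target. Removing mitochondrial and HIST genes gave -0.00123 for H2AFV and -0.0036 for H2AFZ with non-target, and 2 groups in the fit gave -0.00153 for H2AFV. With ACTB, H2AFZ was 0.0528 with library totals and 0.0174 without a filter. The H2AFZ to H2AFV ratio was 0.0178 with 1 added, 0.00724 thinned and 0.00269 halved.

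Leaving out libraries gave these ranges. Against input they were -0.11 to 0.10 for H2AFZ, -0.17 to 0.23 for H2AFV and -0.12 to 0.0574 for their ratio. For H2AFZ they were -0.14 to 0.0708 with ACTB, -0.0576 to 0.16 with con and -0.13 to 0.11 with non-target, and for H2AFV -0.33 to 0.0668, -0.13 to 0.26 and -0.0358 to 0.36. H3F3A with ACTB ran from -0.19 to 0.0101 and H2AFY with non-target from -0.21 to 0.0259. Of ACTB less non-target, H1F0 ran from -0.0506 to 0.10, H2AFZ from -0.11 to 0.0939, H2AFY2 from -0.0454 to 0.28 and H3F3A from -0.0456 to 0.17. Of ACTB less con, H2AFY ran from -0.11 to 0.15 and H3F3B from -0.086 to 0.0279, and of con less non-target H2AFZ from -0.0233 to 0.18 and H3F3A from -0.21 to 0.00756.

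Replicate numbers did not pair the libraries (correlations of deviations from -0.00781 to 0.000978 between guides and -0.0082 to 0.0183 with input). With the replicate block, H1F0 was 0.72 and H3F3B 0.57 (adjusted p = 0.00336), and the members called stayed at 0 in each guide comparison and 2 against input. In the block fit the sign turned for H2AFZ (-0.11) and H2AFV (-0.16) against input, H2AFZ (-0.0569) and H2AFV (-0.12) with con, and H2AFZ (-0.13) and H2AFV (-0.0255) with non-target.

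Over all genes, ACTB less non-target gave 32 calls, 74 by DESeq2, 21 with a 10 CPM filter, 16 with all 9 libraries and 18 to 35 over left-out libraries. ACTB less con gave 4, then 7 without a filter, 2 without mitochondrial and HIST genes, 0 with all 9 libraries and 0 to 3 over left-out libraries. Con less non-target gave 22, then 38 by DESeq2, 12 with a 10 CPM filter and 10 to 27 over left-out libraries. The 22 to 60 input counts of H2AFV and 14 to 50 of H2AFY2 limit what could be detected for them.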

Other observations

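Between guides none of the chaperone and histone lists had a gene past the threshold in edgeR. At an unadjusted p under 0.05, the H3.3 deposition list had 1, 0 and 1 gene of 7, in the order ACTB less non-target, ACTB less con, con less non-target. The H2A.Z list had 2, 2 and 0 of 20, the general chaperones 0, 2 and 0 of the 14 tested there, the other histone genes 0, 0 and 0 of 4, and the clustered histone genes 5, 4 and 2 of 40. Over all 12808 genes 1001, 494 and 673 had such a p.

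The calls of the lists against input varied with the alternatives, which for the lists and for each guide against input were chosen after seeing the data. The number of clustered histone genes called lower ran from 35 to 37 and none was called higher. The H3.3 deposition list had 2 to 4 higher and 1 to 2 lower, the H2A.Z list 3 to 4 higher and 0 to 2 lower, the general chaperones 2 to 6 higher and 3 to 5 lower, and the other histone genes 0 to 1 higher and 2 lower. The median of the general chaperones changed sign, from -0.21 to 0.15, and that of the other histone genes from -0.62 to 0.01.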
